A study of Mus musculus with 8 samples.

Results

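Collagen genes were described across the nuclei of the mouse brain, taking as members every gene whose symbol was Col, a number, a and a number. The rule found 44 members among 32285 genes, and it used no measured value. Single-nucleus RNA-seq, which counts the RNA molecules of single cell nuclei by unique molecular identifiers (UMIs), had been run on the hippocampus (HIP) and the caudate putamen (CP) of C57BL/6JN mice aged 3 or 21 months. Each of the 4 groups, hippocampus at 3 months, hippocampus at 21 months, caudate putamen at 3 months and caudate putamen at 21 months, had 2 libraries, and each library pooled nuclei of 1 male and 1 female. The labels name no transgene and no treatment for any group, and the tissue was punched from the left hemisphere. Nothing in the labels says that the libraries of a group came from separate pairs of animals, so p-values measure only the spread between these libraries.

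Collagens are proteins of 3 chains wound into a triple helix, and most are secreted into the extracellular matrix. Fibrillar collagens form the banded fibrils of connective tissue, and type IV collagens form the sheet of the basement membrane, which in the brain wraps capillaries and lies under the meninges and the end feet of astrocytes. Other members decorate fibrils (the fibril-associated collagens), form short-chain networks or beaded filaments, or span the cell membrane and can be shed from it. The members fell into 11 fibrillar, 6 basement membrane network, 6 beaded filament, 3 short-chain network, 9 fibril-associated, 4 transmembrane and 2 multiplexin genes, the anchoring fibril gene Col7a1 and 2 others (Col26a1 and Col28a1).

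After filtering, 97741 nuclei remained in 8 libraries of 67205436 to 234811422 UMIs, with a median of 6664 to 11276.5 UMIs per nucleus. Nuclei were clustered without collagen genes and named from markers that include no collagen, and 6363 nuclei stayed without a name. Names such as fibroblast-like are shortened here to fibroblast. Counts were summed per class and library, and a level is given in CPM, the gene's UMIs divided by all UMIs of that sum and scaled in the usual way. Only 56 fibroblasts came from the caudate putamen, 50 of them from the replicate 1 libraries of both ages, which also held every nucleus named choroid plexus or ependymal. The hippocampal endothelial sum of the second old library rested on 28 nuclei. Barcodes shared between any pair of libraries made up 0.316% to 0.774% of the smaller one.

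Among classes of tested size, with at least 20 nuclei in each of 4 libraries, collagen RNA was most concentrated in fibroblasts. The summed level of all members was 4754 CPM in hippocampal fibroblasts (mean of 4 libraries), 2117 CPM in hippocampal interneurons, 1287 CPM in caudate putamen mural nuclei (pericytes and smooth muscle), 835 and 664 CPM in hippocampal and caudate putamen endothelium, and 113 CPM in hippocampal oligodendrocytes. Gene length may bear on these sums too, which was not tested. Most of the hippocampal interneuron sum was Col25a1 (1142 CPM, 468 kb) and Col19a1 (709 CPM, 326 kb). The order of classes by summed CPM is therefore not read as an order per kilobase. In fibroblasts 28 of 44 members reached 10 CPM, against 17 in mural nuclei, 8 in hippocampal endothelium and 3 in D2 medium spiny neurons. Of the 44 members, 28 had their highest mean level in a fibroblast, mural or endothelial class, 9 in a class of neurons and 7 in a class of glia, over 21 class and region sums. These counts leave out classes too thin in some library, among them choroid plexus nuclei, whose summed level was 3577 and 3644 CPM in 2 libraries, and ependymal nuclei. Col8a1, Col8a2, Col9a3, Col4a3 and Col4a4 were higher in the former, and Col5a3 and Col6a5 in the latter, than in any of the 21. All 6 basement membrane genes and both multiplexins belonged to the first set, whereas 3 of the 6 beaded filament genes peaked in neurons. Col2a1, Col6a4, Col6a5, Col10a1, Col17a1 and Col22a1 stayed under 10 CPM in every one of these sums. A leading member below is one with the most UMIs, an order that gene length may bear on as well. Levels of different genes are therefore also given per kilobase of gene. These levels are descriptions, and no test was made between classes, which share libraries.

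**Figure D1:**
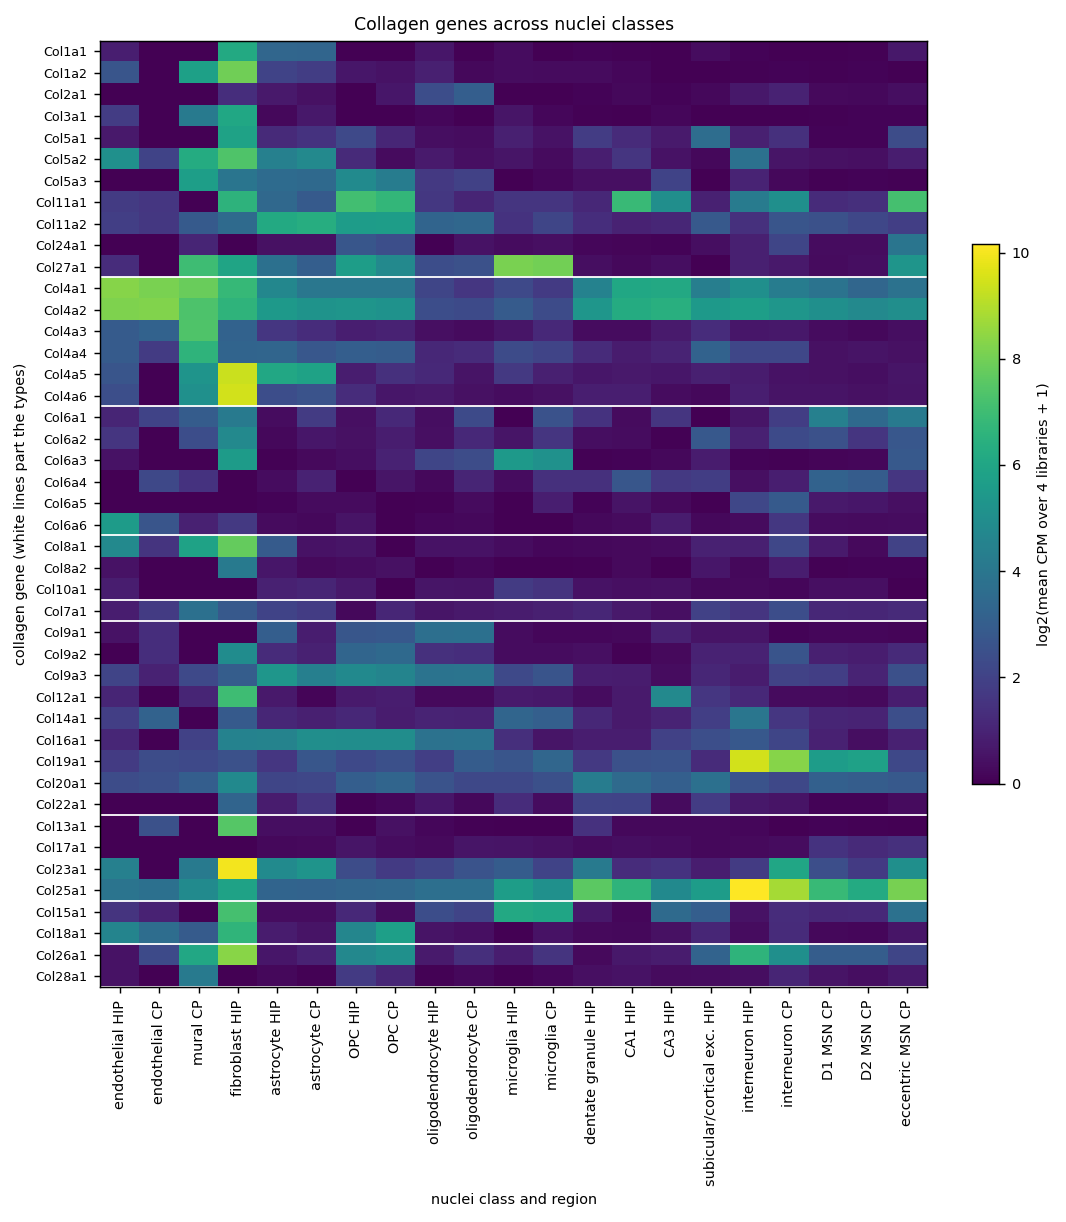
Mean level of the 44 collagen genes (rows, parted by type) in 21 class and region sums (columns, HIP hippocampus, CP caudate putamen), as log2(mean CPM over 4 libraries + 1). The hippocampal fibroblast column is bright for most types, Col4a1 and Col4a2 are brightest in endothelium, and Col19a1 and Col25a1 stand out in interneurons.

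Fibrillar collagens of types I and III were fibroblast genes. Col1a2, the second chain of type I collagen, stood at 275 and 250 CPM in the 3-month and 214 and 254 CPM in the 21-month hippocampal libraries. Col1a1, the other chain of type I, stood at 68.9, 36.9, 85.3 and 89.5 CPM in the same order. Col3a1, the chain of type III collagen, lay between 54.6 and 80.0 CPM. No other class of tested size came near these levels: mural nuclei of the caudate putamen held Col1a2 at 54.1 ± 31.3 CPM (SD, n = 4 libraries of both ages) and Col3a1 at 16.7 ± 7.20 CPM. Col5a2, which joins type I fibrils, was at 163 ± 23.9 CPM in fibroblasts and 76.1 ± 22.2 CPM in mural nuclei. Among classes of tested size Col5a3 was highest in mural nuclei, at 50.5 ± 16.1 CPM.

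The genes with the most fibroblast UMIs were not the classic fibril formers. Col23a1, a transmembrane collagen, had the most UMIs of all members there, at 969, 617, 1356 and 1116 CPM. Col4a6 followed with 629, 724, 740 and 730 CPM and Col4a5 with 608, 714, 652 and 659 CPM. Col23a1 varied most between these libraries, while those of Col4a5 and Col4a6 lay close together. Col26a1 (326 ± 47.5 CPM), Col8a1 (214 ± 76.3 CPM), Col13a1 (178 ± 28.9 CPM), Col15a1 (143 ± 42.3 CPM) and Col12a1 (129 ± 29.2 CPM) completed the part of the list above 120 CPM beside Col1a2 and Col5a2. In the caudate putamen the 56 pooled fibroblasts held Col26a1 at 674 CPM (exact 95% Poisson interval 574 to 786, counting error only), Col23a1 at 438 CPM (359 to 530) and Col4a5 at 422 CPM (344 to 512). These libraries held 2 to 31 fibroblasts each and differed widely, with Col23a1 at 0 to 724 CPM, Col26a1 at 172 to 808 CPM and Col4a5 at 269 to 1803 CPM, so no order against the hippocampus is read from them.

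Whether intronic reads were counted is not given in the sources used here. Per kilobase of gene, the fibroblast order differed from that by CPM. Col1a2 led with 6.77 CPM per kb, followed by Col1a1 with 4.17, Col23a1 with 3.45 and Col4a5 with 3.08 CPM per kb. Col1a1 spans 16.8 kb and Col23a1 294 kb, as the plot of level against gene length shows.

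**Figure D2:**
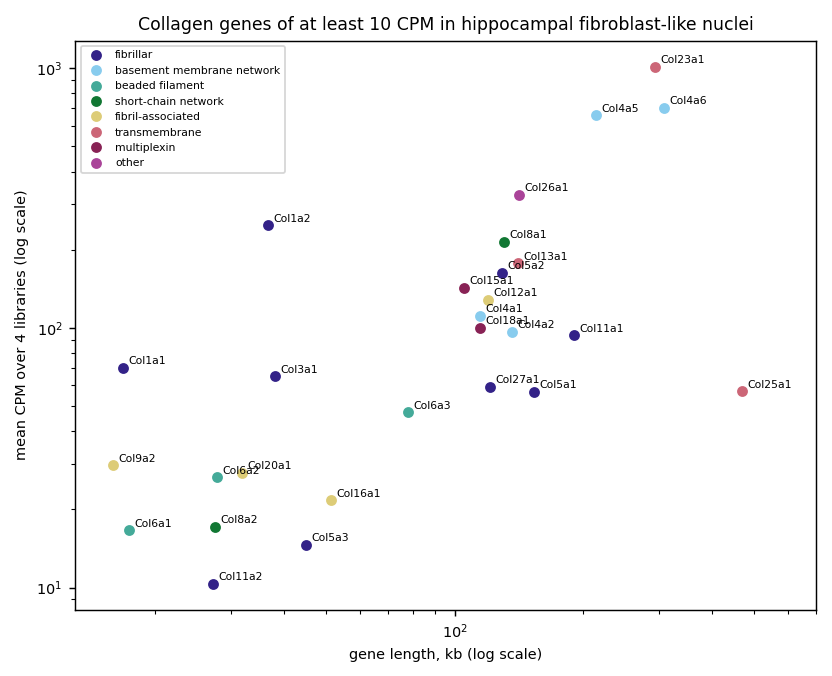
Mean level (CPM over 4 libraries, log scale) against gene length (kb, log scale) for the members of at least 10 CPM in hippocampal fibroblasts, with colours for the types. Col1a1 and Col1a2 lie far to the left of Col23a1, Col4a5 and Col4a6, so that their levels per kilobase (4.17 and 6.77 CPM per kb) exceed those of the longer genes.

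The type IV genes had different leading classes by gene pair. The 6 genes lie as 3 head-to-head pairs, whose chains assemble into separate networks: the Col4a1 and Col4a2 chains into the common one, the Col4a3, Col4a4 and Col4a5 chains into another, and Col4a5 with Col4a6 into the last. In the hippocampal endothelium Col4a1 stood at 449 and 324 CPM at 3 months and 322 and 178 CPM at 21 months. Col4a2 stood at 409, 297, 214 and 241 CPM in the same libraries. Caudate putamen endothelium held Col4a1 at 277 ± 26.4 CPM and Col4a2 at 299 ± 12.7 CPM, inside the hippocampal range. The next member was Col6a6 in the hippocampus (17.7, 17.7, 38.2 and 115 CPM, highest in the library with 28 nuclei) and Col25a1 in the caudate putamen, at 12.6 ± 8.79 CPM. Pooled, that Col25a1 level was 12.9% of the medium spiny neuron level, where the 13 markers of those neurons had a median of 40.1%, and the part of neuronal RNA in it was not tested.

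Mural nuclei of the caudate putamen held Col4a1 at 226 ± 24.0 CPM, Col4a2 at 158 ± 32.5 CPM and, unlike any other class of tested size, Col4a3 at 164 ± 31.8 CPM and Col4a4 at 96.3 ± 56.7 CPM. The next highest class mean of Col4a3 was 8.25 ± 7.86 CPM, in fibroblasts. The 135 hippocampal mural nuclei, pooled, had Col4a3 at 237 CPM (exact 95% Poisson interval 192 to 290) and Col4a4 at 110 CPM (79.8 to 148). Col4a5 and Col4a6 were fibroblast genes, and Col4a5 was also an astrocyte gene, at 67.6 ± 4.03 CPM in hippocampal and 56.3 ± 6.41 CPM in caudate putamen astrocytes. Mural Col4a5 in the caudate putamen was 72.5, 0, 55.9 and 21.6 CPM, and mural Col4a6 58.0, 0, 55.9 and 18.0 CPM, in the same order of libraries. The replicate 1 libraries, which hold nearly all caudate putamen fibroblasts, were thus the high ones for both genes, and the part of fibroblast RNA in these values was not tested.

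Col4a1 and Col4a2 were also found in neurons. CA1 pyramidal neurons held Col4a1 at 64.6 ± 6.08 CPM and Col4a2 at 75.2 ± 3.42 CPM, and CA3 neurons held 69.6 ± 10.4 and 85.1 ± 7.001 CPM. Pooled over libraries, CA1 Col4a1 was at 18.0% and Col4a2 at 26.2% of the hippocampal endothelial level, and the 12 endothelial markers stood in CA1 at 0.04% to 0.914% of theirs. In D1 neurons the caudate putamen shares were 4.95% for Col4a1 and 10.6% for Col4a2, against 0.014% to 1.23% for the markers. The part of endothelial RNA in these neuronal levels was not tested. Among the classes named here, means of Col4a1 ran from endothelium over mural nuclei and fibroblasts (112 ± 16.1 CPM) to CA3, CA1 and, at 13.7 ± 1.62 CPM, D1 neurons. The neighbours endothelium and mural nuclei, and CA3 and CA1, overlapped in their libraries.

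**Figure D3:**
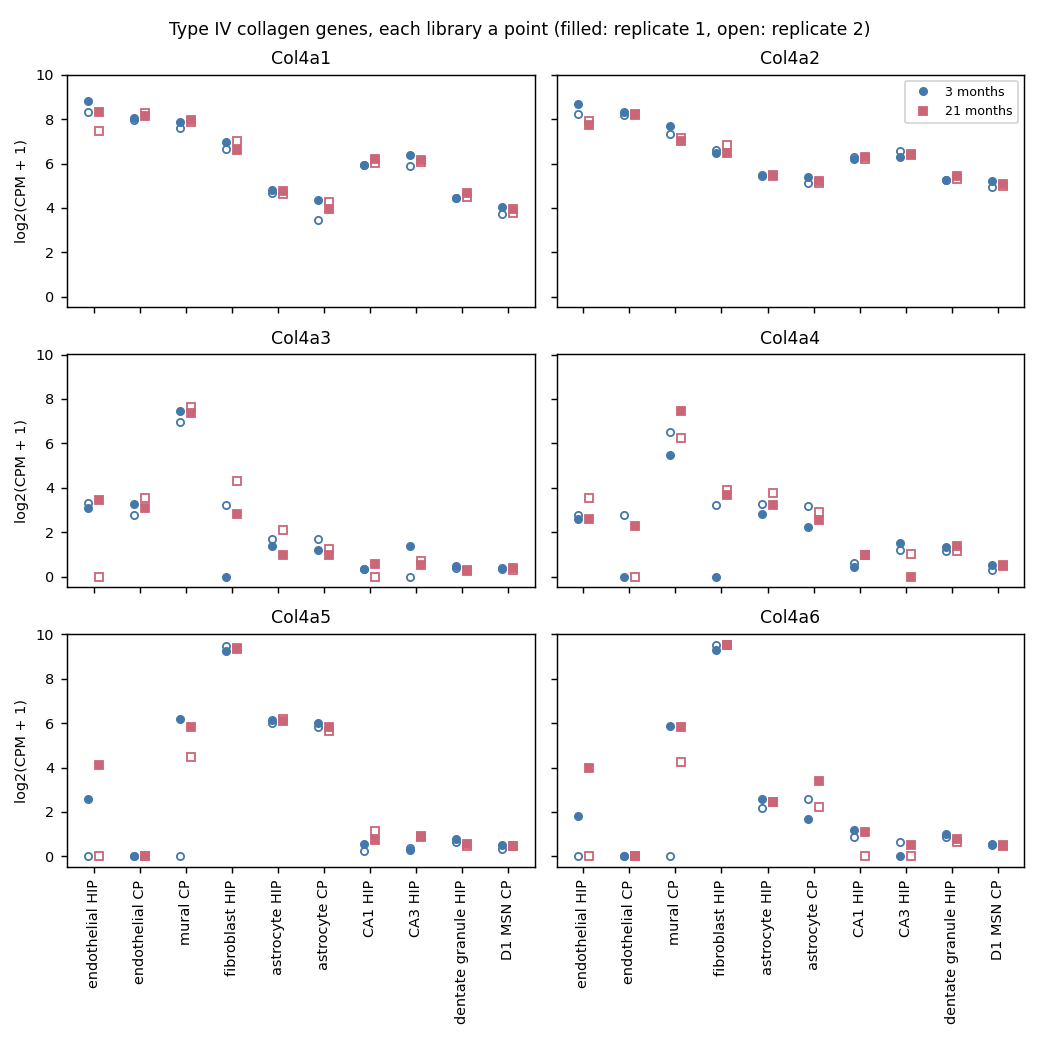
Levels of the 6 type IV collagen genes as log2(CPM + 1) in 10 class and region sums, with 1 point per library (circles 3 months, squares 21 months, filled replicate 1, open replicate 2). Col4a1 and Col4a2 are above 3 on this scale in all 10, Col4a3 and Col4a4 are high in mural nuclei, and Col4a5 and Col4a6 are high in fibroblasts, with Col4a5 also in astrocytes.

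The start regions of the pairs are shown because the members of each pair are transcribed outward from neighbouring starts. In the GENCODE annotation of GRCm38, Col4a4 starts at position 82586849 of chromosome 1 on the minus strand and Col4a3 at 82586921 on the plus strand, with 71 bases between them. Col4a6 starts at 141474076 of chromosome X on the minus strand and Col4a5 at 141475385 on the plus strand, 1308 bases apart. Col4a1 and Col4a2 on chromosome 8 overlap by 22 bases at their starts, so no window outside the transcripts is shown for them. The sequences are from RefSeq (GRCm38.p6), where 35 of 44 members had an entry, and overlap no annotated exon. Capitals mark matches to CCAAT or to the GC box GGGCGG, searched on both strands, and TATAAA was searched too and had no match.
Between Col4a4 and Col4a3, chr1:82586850-82586920, minus strand (5′ end near Col4a3): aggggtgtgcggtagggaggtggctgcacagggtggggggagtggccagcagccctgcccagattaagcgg
Upstream of Col4a5, chrX:141475169-141475384, plus strand: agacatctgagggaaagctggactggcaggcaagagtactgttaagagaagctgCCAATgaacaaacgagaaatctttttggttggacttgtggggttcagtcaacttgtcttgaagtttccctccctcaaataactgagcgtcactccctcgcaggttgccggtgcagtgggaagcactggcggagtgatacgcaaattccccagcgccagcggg
Upstream of Col4a6, chrX:141474077-141474326, minus strand: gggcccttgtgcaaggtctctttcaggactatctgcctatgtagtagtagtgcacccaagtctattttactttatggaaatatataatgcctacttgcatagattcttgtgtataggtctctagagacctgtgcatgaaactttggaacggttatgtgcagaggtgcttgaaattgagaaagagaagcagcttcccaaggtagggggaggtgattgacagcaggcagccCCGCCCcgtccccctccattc
The stretch between Col4a4 and Col4a3 held no match to the 3 motifs in its 71 bases, and 69.0% of its bases were G or C. The Col4a5 window held 1 CCAAT and no GC box in its 216 bases. The Col4a6 window held 1 GC box and no CCAAT. Of all RefSeq windows of 250 bases, 33.9% held CCAAT, 32.7% a GC box and 12.4% TATAAA, and of windows of 71 bases 13.3%, 20.7% and 4.41%. At 216 bases, the length of the Col4a5 window, the shares were 30.8%, 31.6% and 10.8%. A match is a description of letters and not a binding site. Among classes of tested size, hippocampal fibroblasts had the highest mean of both Col4a5 and Col4a6. Hippocampal astrocytes held Col4a6 at 4.34 ± 0.658 CPM.

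Sub-clusters of the vascular nuclei, made without collagen genes, split the other endothelial collagens further. A sub-cluster of 58 endothelial nuclei with Vwf and Cysltr1 among its leading genes held Col6a6, a beaded filament chain, at 296 CPM. Another of 52 endothelial nuclei, led by Eln, Bmx and Gata6, held Col5a2 at 339, Col18a1 at 258, Col8a1 at 238 and Col23a1 at 183 CPM. A sub-cluster of 197 endothelial nuclei, 196 of them from the hippocampus, had Col4a1 at 332 and Col4a2 at 262 CPM, and no other member there exceeded Col4a3 at 15.4 CPM. Among fibroblasts, a sub-cluster of 46 nuclei led by Svep1 held Col15a1 at 440 and Col12a1 at 409 CPM, beside Col4a6 at 1057 CPM. Clusters were made from these same nuclei, so these values are descriptions.

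Glia had their own sets. In astrocytes the leading members were Col11a2, a minor fibrillar chain, at 71.9 ± 4.50 CPM in the hippocampus and 78.8 ± 11.7 CPM in the caudate putamen, and Col4a5. Next stood Col4a2 in the hippocampus (43.0 ± 0.372 CPM) and Col23a1 in the caudate putamen (37.1 ± 10.4 CPM). Per kilobase Col11a2 led astrocytes with 2.64 and 2.89 CPM per kb, ahead of Col9a3 with 1.61 and 0.819. Col9a3 is a chain of the fibril-associated type IX collagen and overlaps Tcfl5 on the opposite strand, so reads of the genes may be mixed if strand was not used in counting.

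Oligodendrocyte precursors (OPC) were led by Col11a1, at 134 ± 15.9 CPM in the hippocampus and 106 ± 23.0 CPM in the caudate putamen. Behind it stood Col27a1 (49.0 ± 8.15 CPM) and Col11a2 (47.9 ± 3.47 CPM) in the hippocampus, and Col18a1 (51.8 ± 9.37 CPM) and Col11a2 (49.0 ± 16.9 CPM) in the caudate putamen. Per kilobase Col11a2 and Col9a3 led OPC of both regions. Mature oligodendrocytes held little collagen RNA. Their leading members were Col9a3 (13.7 ± 2.70 and 14.1 ± 2.58 CPM in hippocampus and caudate putamen), Col16a1 (13.4 ± 2.35 and 13.8 ± 0.999 CPM) and, next in the caudate putamen, Col9a1 (12.6 ± 2.85 CPM). Col25a1 came next in hippocampal oligodendrocytes, at 12.3 ± 4.85 CPM.

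Microglia had a short list led by Col27a1, a fibrillar collagen, at 320, 256, 277 and 259 CPM in the hippocampus and 256, 256, 277 and 239 CPM in the caudate putamen. The regions overlapped, and no other class mean of Col27a1 exceeded 129 CPM. Col15a1, a multiplexin of basement membranes, followed with 68.3 ± 16.1 and 61.5 ± 10.7 CPM, and Col6a3 came next in the caudate putamen with 34.7 ± 20.7 CPM. Col25a1 came next in hippocampal microglia (49.2 ± 18.6 CPM), at 26.7% of its level in dentate granule neurons. The 7 dentate granule markers stood in these microglia at 10.4% to 107% of their own level there. Their median was 17.9%, and Dock10 (107%) and Maml2 (73.7%) were the 2 above Col25a1. In hippocampal oligodendrocytes the Col25a1 share was 6.55%, and that of the markers 3.72% to 275% with a median of 11.8%. The part of granule neuron RNA in these Col25a1 levels was not tested.

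Interneurons held the highest class means of a transmembrane and a fibril-associated collagen. Col25a1 encodes a transmembrane collagen known as the precursor of a component of amyloid plaques, and Col19a1 encodes a fibril-associated collagen. In hippocampal interneurons Col25a1 stood at 1092 and 1074 CPM at 3 months and 1247 and 1156 CPM at 21 months. Col19a1 stood there at 675, 674, 752 and 735 CPM. In caudate putamen interneurons Col25a1 was lower in every library, at 400, 482, 416 and 479 CPM, and Col19a1 was lower as well, at 289, 300, 378 and 315 CPM. The interneuron classes of the regions were not compared by a test, and they pooled clusters with different leading genes. A caudate putamen cluster had Chat and Slc5a7 among them and another Nos1, and a hippocampal cluster had Col19a1 itself. The part of this makeup in the difference was not tested. The next members were Col26a1 in the hippocampus (97.8 ± 12.7 CPM) and Col23a1 in the caudate putamen (63.6 ± 13.9 CPM). Per kilobase Col25a1 and Col19a1 also led the hippocampal interneurons, and Col19a1 came before Col25a1 in the caudate putamen.

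Col25a1 also led dentate granule neurons (194 ± 6.60 CPM), D1 neurons (113 ± 11.2 CPM), D2 neurons (72.3 ± 2.50 CPM), eccentric medium spiny neurons (266 ± 30.9 CPM) and the subicular or cortical excitatory class (48.1 ± 16.1 CPM). Behind it Col4a2 stood at 39.2 ± 2.38 CPM in dentate granule and 44.3 ± 9.31 CPM in subicular or cortical neurons. In D1 and D2 neurons Col19a1 came before Col4a2, at means of 47.8 and 55.5 CPM over libraries of 31.9 to 74.4 CPM, and Col4a2 stood at 32.1 ± 2.67 and 26.2 ± 1.99 CPM. CA1 was led by Col11a1 (118 ± 17.5 CPM) over Col25a1 (96.2 ± 9.48 CPM). Per kilobase CA1 was led by Col11a1, Col4a1 and Col4a2, and dentate granule neurons by Col20a1 before Col25a1. CA3 was led by Col4a2 and Col4a1, with Col11a1 next at 31.5 ± 19.1 CPM. Col11a1 was also second in eccentric neurons, at 142 ± 15.0 CPM, where Col27a1 came next at 38.0 ± 5.64 CPM. It was the leading member in the 160 Cajal-Retzius nuclei, pooled, at 285 CPM (exact 95% Poisson interval 248 to 326), followed by Col23a1 at 111 CPM (88.1 to 138). The intervals cover counting error only, and the 4 libraries, of 10 to 83 nuclei, ranged from 207 to 522 CPM for Col11a1 and from 50.2 to 349 CPM for Col23a1.

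Within the medium spiny neurons, which are the projection neurons of the striatum, 2 members varied between replicates more than between ages. Col6a1, a beaded filament chain, stood in D1 neurons at 28.4 and 13.4 CPM at 3 months and 27.9 and 11.2 CPM at 21 months. Col19a1 stood there at 35.7, 62.3, 31.9 and 61.1 CPM. The replicate 1 library of each age was thus higher for Col6a1 and lower for Col19a1, and D2 neurons had the same order, with Col6a1 at 14.3, 6.43, 15.0 and 4.10 CPM and Col19a1 at 46.2, 74.4, 39.0 and 62.6 CPM. The replicate 1 libraries were also those with choroid plexus and ependymal nuclei, and whether the 2 go together was not tested. The clusters within each class also differed by replicate. A D1 cluster with Col6a1 at 7.27 and Col19a1 at 67.2 CPM held 808 and 716 nuclei in replicate 1 and 2232 and 2334 in replicate 2 (3 and 21 months). A D2 cluster with Col6a1 at 28.3 and Col19a1 at 20.3 CPM held 784 and 723 against 139 and 55. Their part in the replicate difference was not tested. Per kilobase Col6a1 was the highest member in D1 neurons, at 1.16 CPM per kb.

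Epithelia of the ventricle had levels that fibroblasts did not reach for some genes. The 132 choroid plexus nuclei, from the caudate putamen replicate 1 libraries of both ages, held Col8a1, a short-chain network gene, at 1390 CPM (exact 95% Poisson interval 1323 to 1459). Col9a3 stood at 890 CPM (837 to 945), Col4a3 at 383 CPM (348 to 420), Col4a4 at 305 CPM (274 to 338) and Col8a2 at 148 CPM (126 to 171). The 53 ependymal nuclei had Col5a3 at 180 CPM (136 to 232) and Col6a5 at 111 CPM (78.1 to 154). Col26a1 stood there at 130 CPM (93.7 to 176), below its hippocampal fibroblast mean of 326 CPM. In the 84 border macrophages of the hippocampus Col11a1 and Col8a1 had the most UMIs, but all of them (26 and 17) came from the 32 nuclei of the second young library, and the other 3 libraries had none, so no level of the class is given. No test was made in these classes: choroid plexus and ependymal nuclei came from 1 library per age, and the border macrophage sums had under 20 nuclei in 2 of 4 libraries.

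Age was tested in each region with the edgeR quasi-likelihood test on the summed counts, with Benjamini-Hochberg adjustment over all genes of a class, and a change was called at an adjusted p under 0.05. In the hippocampus 3 of 166 tests of members passed, 1 higher and 2 lower at 21 months, or 1.81%, against 0.949% of all gene and class tests (0.548% higher and 0.401% lower). They were in CA1 neurons (1) and dentate granule neurons (2), where 0.786% and 4.1% of all genes passed. In some class 40 of the 44 members were tested. Leaving out either young hippocampal library raised the count, most for the first, and leaving out either old one lowered it. The share over all tests moved the same way, and these fits had 1 library in a group. With no filter on low counts 16 of 455 passed (3.52%, all tests 2.19%), and with doublets retained 6 of 154 (3.9%, all tests 1.18%).

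Col11a1, a fibrillar chain, rose in CA1 neurons, from 108 and 97.8 CPM to 128 and 136 CPM. Its log2 fold change was 0.44 ± 0.091 (SE, edgeR adjusted p = 0.0420), and both old libraries lay above both young ones. CA1 sums held 821 and 1107 nuclei at 3 months but 267 and 195 at 21 months. A cluster nearest CA1 that stayed unnamed held 179 and 95 against 21 and 12. The part of these differences in the Col11a1 change was not tested. Fibroblasts had a positive Col11a1 estimate as well (0.759 ± 0.331, edgeR adjusted p = 0.484). The other classes tested had negative ones without passing. Among them were dentate granule neurons (-0.883 ± 0.307, edgeR adjusted p = 0.161) and hippocampal interneurons (-0.524 ± 0.206, 0.781). Col20a1, a fibril-associated collagen, fell in dentate granule neurons from 20.4 and 22.3 CPM to 15.0 and 15.9 CPM (log2 fold change -0.43 ± 0.090, edgeR adjusted p = 0.0237). Without passing, its log2 fold change was also negative in CA1 (-0.615 ± 0.192, edgeR adjusted p = 0.223), D1 (-0.792 ± 0.193, 0.111) and D2 neurons (-0.59 ± 0.172, 0.102). Of the classes tested, only astrocytes had positive Col20a1 estimates with age (0.485 ± 0.401 and 0.085 ± 0.455 in hippocampus and caudate putamen). Those in OPC, fibroblasts and the other neurons were negative. In oligodendrocytes the mean effect over both regions was -0.857 ± 0.232 (edgeR adjusted p = 0.0549). Col19a1 fell in dentate granule neurons from 2.82 and 3.58 CPM to 1.17 and 1.41 CPM (log2 fold change -1.29 ± 0.206, edgeR adjusted p = 0.00579). The Col19a1 level was 0.377% of that in interneurons, and the 12 interneuron markers stood in dentate granule nuclei at 0.132% to 34.4% of theirs. Adarb2 (34.4%) and Gad1 (12.9%) set the top of that range, and the median was 2.04%. The summed markers were 2775 and 2250 CPM at 3 months and 2695 and 2894 CPM at 21 months. Pooled, Adarb2 stood at 2479 CPM and the next marker, Gad1, at 41.5 CPM. The sum thus follows mainly Adarb2 and cannot track interneuron RNA. The part of interneuron RNA in the Col19a1 values was not tested. The clusters that make up the granule class held different shares of each age: 1 of them had 529 and 1528 nuclei at 3 months and 85 and 75 at 21 months, and another 594 and 1560 against 260 and 217. Pooled over libraries, Col20a1 stood in these 2 clusters at 19.98 and 20.9 CPM and in the largest, of 7242 nuclei, at 18.7 CPM, and Col19a1 at 3.56, 3.44 and 1.53 CPM. The part of this makeup in the changes was not tested. None of the calls held in every fit that left out 1 hippocampal library: Col11a1 was lost without the second young library (adjusted p = 0.329), the first old (0.232) or the second old (0.105), Col20a1 without the first old (0.273) or the second old (0.113), and Col19a1 without the first old (0.128). Col11a1 was lost as well with a gene length trend removed (0.0656) and at clustering resolution 0.5 (0.0605).

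In hippocampal fibroblasts, the class of tested size where 20 of the 44 members were highest, none of the 24 tested members passed with age, against 0.0401% of all genes there. At an unadjusted p under 0.05 there were 3, all higher at 21 months, or 12.5%, near the 9.18% of all genes there, and the median log2 fold change of the 24 was 0.16, against 0.001 over all genes tested there. Col23a1 had 969 and 617 CPM at 3 months and 1356 and 1116 CPM at 21 months (log2 fold change 0.68 ± 0.228, edgeR adjusted p = 0.298). Col8a1 had 102 and 230 CPM against 266 and 259 CPM (log2 fold change 0.69 ± 0.281, edgeR adjusted p = 0.430). Both old libraries were above both young ones for each gene, but the changes did not pass. In the endothelium none of the 4 tested members passed with age in either region. In the hippocampus the log2 fold changes were -0.68 ± 0.247 for Col4a2 (edgeR adjusted p = 0.323), -0.50 ± 0.249 for Col4a1 (0.602), 1.22 ± 0.693 for Col5a2 (0.705) and 2.21 ± 0.916 for Col8a1 (0.441). In the caudate putamen that of Col4a2 was -0.04 ± 0.265 (edgeR adjusted p = 0.994) and that of Col4a1 0.196 ± 0.283 (0.99).

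In the caudate putamen 2 of 180 tests of members passed, both lower, or 1.11%, against 1.2% of all gene and class tests (0.635% lower). With no filter on low counts 10 of 407 passed (2.46%, all tests 2.18%). Both calls were Col11a2, a chain of the fibrillar type XI collagen. In D2 neurons it fell from 5.45 and 5.31 CPM to 1.60 and 1.50 CPM (log2 fold change -1.82 ± 0.149, edgeR adjusted p = 0.00532). In D1 neurons it fell from 8.37 and 6.01 CPM to 1.93 and 2.49 CPM (log2 fold change -1.72 ± 0.202, edgeR adjusted p = 0.0257). Old and young libraries were far apart in both classes.

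Other classes of the caudate putamen had the same order of libraries for Col11a2 without passing. Col11a2 in eccentric neurons stood at 4.16 and 4.51 CPM at 3 months against 1.43 and 0.715 CPM at 21 months (edgeR adjusted p = 0.199). Interneurons had 8.85 and 6.65 against 2.96 and 3.27 CPM (edgeR adjusted p = 0.117), and OPC 70.3 and 55.0 against 35.6 and 35.3 CPM (edgeR adjusted p = 0.128). Astrocytes, the class with the highest level, had 93.7 and 79.0 against 65.3 and 77.3 CPM (log2 fold change -0.27 ± 0.121, edgeR adjusted p = 0.392). The D1 level was 6.34% and the D2 level 4.79% of the astrocyte level, and the 9 astrocyte markers stood in D1 neurons at 0.166% to 57.5% of theirs, with a median of 0.594%. Slc4a4 set the top of that range, and the other 8 lay at or under 2.09%, below the Col11a2 shares. The part of astrocyte RNA in the Col11a2 values was not tested. The D2 call held under every alternative run, whereas the D1 call was lost without any 1 of the 4 caudate putamen libraries (adjusted p = 0.0883 to 0.153), with doublets retained (0.113) and with collagens among the clustering genes (0.0607). None of the 11 members tested in mural nuclei passed, beside 0.101% of all genes there, and 3 had an unadjusted p under 0.05 (1 higher and 2 lower), or 27.3% against 6.28% of all genes.

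Over both regions, the mean of the age effects was tested in the classes they share. Of 67 tests of members 4 passed, all higher at 21 months, or 5.97%, against 3.02% of all gene and class tests (1.94% higher). Fewer passed when 1 library was left out, and fewest without the first old hippocampal library. The exceptions were the fits without the first young hippocampal or the second old caudate putamen library. Where fewer passed, the share over all tests fell as well.

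In microglia Col6a3, a chain of the beaded filament type VI collagen, rose from 17.3 and 26.2 CPM to 57.3 and 72.5 CPM in the hippocampus and from 10.2 and 26.2 CPM to 45.1 and 57.2 CPM in the caudate putamen. All 4 old libraries lay above all 4 young ones. The log2 fold change of the mean effect was 1.44 ± 0.257 (edgeR adjusted p = 0.00846), and the call held under every alternative run, with adjusted p up to 0.0441. In oligodendrocytes Col6a3 rose from 2.24 and 0.704 CPM to 6.48 and 3.90 CPM in the hippocampus and from 2.52 and 1.26 CPM to 5.74 and 7.28 CPM in the caudate putamen (log2 fold change 1.95 ± 0.349, edgeR adjusted p = 0.00997). Without the first old hippocampal library this call was lost (adjusted p = 0.089). The oligodendrocyte level was 7.85% of the microglial one in the hippocampus and 12.8% in the caudate putamen, above each of the 8 microglial markers, which stood at 0.076% to 2.57%. The summed markers in oligodendrocytes were 38.4 to 57.5 CPM in young and 42.1 to 50.9 CPM in old libraries, and the part of microglial RNA in the Col6a3 values was not tested.

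Col6a3 had the same direction in fibroblasts, at 16.6 and 49.2 CPM at 3 months and 57.5 and 65.9 CPM at 21 months, without passing (edgeR adjusted p = 0.541). In eccentric neurons Col6a3 stood at 7.17 and 5.13 CPM against 4.71 and 7.39 CPM, which did not pass (log2 fold change -0.02 ± 0.319, edgeR adjusted p = 0.992).

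Col9a1, a chain of type IX collagen, rose in oligodendrocytes from 8.68 and 11.5 CPM to 13.4 and 14.8 CPM in the hippocampus and from 10.2 and 10.5 CPM to 16.3 and 13.4 CPM in the caudate putamen (log2 fold change 0.54 ± 0.142, edgeR adjusted p = 0.0490). Col23a1 rose in astrocytes from 26.7 and 25.4 CPM to 33.7 and 26.9 CPM in the hippocampus and from 30.9 and 26.4 CPM to 49.7 and 41.1 CPM in the caudate putamen (log2 fold change 0.47 ± 0.111, edgeR adjusted p = 0.0407). The hippocampal libraries of Col23a1 nearly met, with 26.7 CPM young and 26.9 CPM old. Col9a1 was lost in 7 of the 8 fits that left out 1 library each (adjusted p up to 0.160) and Col23a1 in 6 of 8 (up to 0.208), and DESeq2 called neither.

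Age effects were also compared between regions. The edgeR test of that difference passed for 0 of 67 member tests, and for 0.0% of all gene and class tests. At an unadjusted p under 0.05 there were 2 (2.99%), beside 5.8% of all genes in OPC and 5.19% in astrocytes: Col11a2 in OPC (caudate putamen minus hippocampus -0.96 ± 0.316 on the log2 scale) and Col25a1 in astrocytes (1.14 ± 0.506), which were named after their values were seen. DESeq2 called 0 as well and had 1 at an unadjusted p under 0.05.

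**Figure D4:**
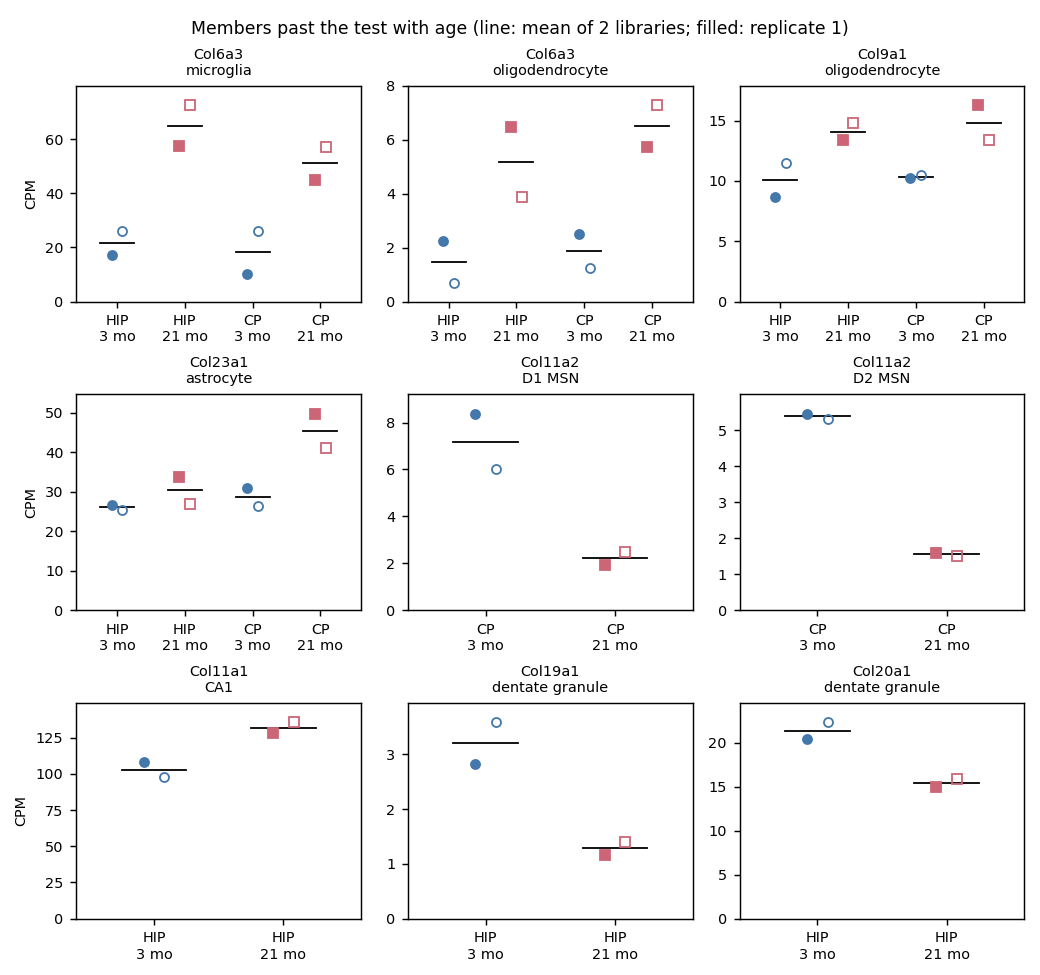
Levels (CPM, axes from 0) of the 7 members that passed an age test, in 9 panels of gene and class, with 1 point per library (circles 3 months, squares 21 months, filled replicate 1) and a line at the mean of 2 libraries. Young and old points lie apart in the panels of Col6a3 in microglia and of Col11a2 in D1 and D2 neurons, while the Col23a1 hippocampal points nearly meet.

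Regions were compared in the 5 classes they share. Caudate putamen against hippocampus, over both ages, passed for 17 of 67 tests of members (7 higher and 10 lower in the caudate putamen), or 25.4%, against 11.4% of all gene and class tests (6.47% higher and 4.9% lower). In every fit that left out 1 library a smaller share of members passed, and the smallest without the first old hippocampal library. The share over all tests fell too, except without the second young hippocampal library. DESeq2 called 11 of 67 (16.4%, all tests 8.59%). Astrocytes held 11 of the 17 calls, out of 24 members tested, beside 21.1% of all genes tested in astrocytes. The astrocyte sums pooled clusters of uneven size. A hippocampal one with Pax3 and Slc6a11 among its leading genes held 134 and 214 nuclei at 3 months and 386 and 111 at 21 months. A caudate putamen one led by Slc6a11 held 77 and 0 against 90 and 2. The part of this makeup in the astrocyte calls, by region or with age, was not tested.

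Among fibril-associated members, Col9a1 was lower in caudate putamen astrocytes, with 7.91, 5.89, 10.1 and 4.64 CPM in hippocampal astrocytes against 1.53, 0.281, 0.477 and 0.678 CPM in those of the caudate putamen. Its log2 fold change, caudate putamen against hippocampus, was -3.30 ± 0.417 (edgeR adjusted p = 0.000156), and no libraries overlapped. Col9a3 had 31.2, 33.7, 40.2 and 51.8 CPM against 20.5, 18.6, 17.6 and 23.3 CPM (log2 fold change -0.97 ± 0.122, edgeR adjusted p = 0.000102). Col16a1 went the other way, with 18.2, 24.0, 23.3 and 23.9 CPM in the hippocampus and 30.3, 28.7, 30.8 and 35.9 CPM in the caudate putamen (log2 fold change 0.47 ± 0.111, edgeR adjusted p = 0.00845). These 3 calls held in every fit run.

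Among the basement membrane and fibrillar members, 5 were lower in caudate putamen astrocytes. Col4a1 fell by 0.73 on the log2 scale (SE 0.167, edgeR adjusted p = 0.00835), from 23.7 to 27.4 CPM in hippocampal libraries to 9.84 to 19.4 CPM. Col4a5 and Col4a2 differed by -0.28 ± 0.088 and -0.27 ± 0.088 on the log2 scale, and were lost in 6 and 7 of the 8 fits that left out 1 library (edgeR adjusted p up to 0.145 and 0.162) and with DESeq2 (0.139 and 0.239). Col27a1 differed by -0.87 ± 0.213 (edgeR adjusted p = 0.0105) and Col11a1 by -0.62 ± 0.170 (edgeR adjusted p = 0.0201). Without the first old hippocampal library the adjusted p was 0.0505 for Col4a1, 0.0782 for Col27a1 and 0.0798 for Col11a1. Col27a1 was also lost without the first young caudate putamen library (0.0595), and so was Col11a1 (0.0817), which was lost too without the second old caudate putamen library (0.0794) and with DESeq2 (0.145). Col23a1 was higher in the caudate putamen (0.34 ± 0.112, edgeR adjusted p = 0.0494) and was lost in 6 of 8 such fits (up to 0.203) and with DESeq2 (0.177).

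The members with the largest positive differences in glia, Col6a1 and Col19a1, were high in medium spiny neurons. Col19a1 was higher still in interneurons of both regions, with a mean of 709 CPM in the hippocampus. Col6a1 had 0.247, 0.578, 0.196 and 0 CPM in hippocampal and 3.92, 2.53, 1.27 and 1.81 CPM in caudate putamen astrocytes (log2 fold change 3.09 ± 0.523, edgeR adjusted p = 0.000937). In oligodendrocytes it had 0, 0.352, 0.627 and 0.260 CPM against 5.80, 4.40, 3.34 and 2.14 CPM (log2 fold change 3.47 ± 0.473, edgeR adjusted p = 0.000525). Col19a1 had 1.17 to 3.24 CPM in hippocampal and 3.02 to 7.91 CPM in caudate putamen astrocytes (log2 fold change 1.46 ± 0.344, edgeR adjusted p = 0.00864), and was lost without the first old hippocampal library (0.0735). Against the mean of D1 and D2 neurons, Col6a1 stood at 15.8% in caudate putamen astrocytes and 26.2% in oligodendrocytes, and Col19a1 at 9.73% in astrocytes. The 13 medium spiny neuron markers stood at a median of 58.4% in astrocytes (7.24% to 893%) and 49.0% in oligodendrocytes (10.0% to 168%). The part of neuronal RNA in these differences of Col6a1 and Col19a1 was not tested.

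**Figure D5:**
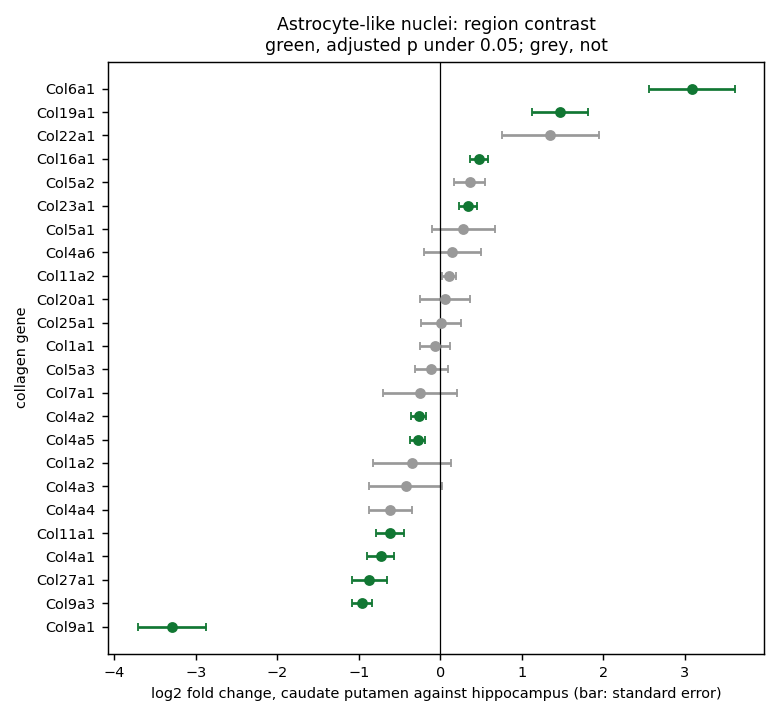
Log2 fold change, caudate putamen against hippocampus, of the 24 members tested in astrocytes (points, with standard errors as bars), green where the edgeR adjusted p was under 0.05 and grey otherwise. Col9a1 (-3.30) and Col6a1 (3.09) lie at the ends, and most of the other called members lie within 1 of 0.

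In OPC Col18a1, a multiplexin whose end fragment is endostatin, was higher in the caudate putamen, with 39.5, 62.3, 53.3 and 52.0 CPM against 38.6, 16.7, 16.8 and 26.5 CPM (log2 fold change 1.104 ± 0.231, edgeR adjusted p = 0.00357). Only the first young hippocampal library came near the caudate putamen values. Col27a1 was lower there, with 38.5, 18.2, 25.1 and 25.1 CPM against 38.6, 46.5, 56.8 and 54.0 CPM (log2 fold change -0.97 ± 0.196, edgeR adjusted p = 0.000929), and both calls held in every fit run. Col11a1 was lower by 0.40 on the log2 scale (SE 0.119, edgeR adjusted p = 0.0371) with overlapping libraries, and was lost in 4 of 8 fits without 1 library (up to 0.285) and with DESeq2 (0.334). In this class 3 of 14 members passed, beside 5.16% of all genes. Col18a1 overlaps Slc19a1 on the opposite strand, so reads of the genes may be mixed if strand was not used in counting.

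In oligodendrocytes 2 of 21 members passed, beside 12.9% of all genes. Col2a1, the chain of type II collagen of cartilage, had 2.80, 4.23, 5.44 and 4.42 CPM in the hippocampus and 6.43, 5.23, 9.33 and 8.25 CPM in the caudate putamen (log2 fold change 0.73 ± 0.198, edgeR adjusted p = 0.0328), and was lost in 6 of 8 fits without 1 library (up to 0.117) and with DESeq2 (0.141). None of the 4 members tested in microglia passed, beside 5.4% of all genes, and 1 had an unadjusted p under 0.05, as had 14.2% of all genes.

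In the endothelium 1 of 4 members passed, beside 4.5% of all genes. Col5a2 had 40.4, 8.83, 83.0 and 0 CPM in the hippocampus and 8.54, 0, 3.80 and 0 CPM in the caudate putamen (log2 fold change -3.24 ± 0.883, edgeR adjusted p = 0.0272). The libraries overlapped, and the call was lost without the first young hippocampal library (0.212), the second young caudate putamen library (0.0898) or the first old caudate putamen library (0.192), and with DESeq2 (adjusted p = 0.952). Fibroblast markers, summed over 16 genes, stood in the same hippocampal endothelial sums at 303, 174, 498 and 94.5 CPM, in the order of the Col5a2 values. Pooled, Col5a2 stood there at 29.1% of its fibroblast level, and the 16 markers at 0% to 60.8% of theirs, with a median of 2.15%. The sub-cluster led by Eln and Bmx, where Col5a2 was highest, had 46 nuclei from the hippocampus and 6 from the caudate putamen. The part of fibroblast RNA and of these nuclei in the difference was not tested.

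Genes that make, bind or cut collagen were counted from lists chosen with earlier results of these data known. Their counts stand beside the shares of all gene and class tests, which were 0.563% higher and 0.635% lower with age in the caudate putamen and 0.548% higher and 0.401% lower in the hippocampus. Of the 31 genes for synthesis and crosslinking, 8 gene and class tests fell and 1 rose with age in the caudate putamen among 191 (4.19% and 0.524%), and 2 fell and 1 rose in the hippocampus among 206 (0.971% and 0.485%). P3h3, a prolyl 3-hydroxylase of the collagen chains, made up 5 of the 8: it fell in D1, D2, astrocyte, interneuron and oligodendrocyte sums. In D1 neurons it went from 39.98 and 33.7 CPM to 19.4 and 16.5 CPM (log2 fold change -1.06 ± 0.113, edgeR adjusted p = 0.0232). For the mean over both regions 2 rose and 4 fell of 94 (2.13% and 4.26%), against 1.94% higher and 1.09% lower over all tests, and P3h3 was among those that fell, in astrocytes and oligodendrocytes. In astrocytes Pcolce2, an enhancer of procollagen processing, rose over both regions, from 3.21 and 4.85 to 9.88 and 10.5 CPM in the hippocampus and from 1.74 and 1.97 to 4.13 and 4.75 CPM in the caudate putamen (log2 fold change 1.31 ± 0.230, edgeR adjusted p = 0.0113).

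Of the 11 collagen receptors, 3 tests of 76 fell with age in the hippocampus (3.95%), and 2 fell and 2 rose of 72 in the caudate putamen (2.78% each). Itga10, the alpha chain of a collagen-binding integrin, was among those that fell in CA1, dentate granule, D1 and D2 neurons. Itga11, on the same list, was each of the 2 that rose. Its log2 fold change was 0.59 ± 0.091 in D1 (edgeR adjusted p = 0.0395) and 0.44 ± 0.095 in D2 neurons (0.0457). In dentate granule neurons Itga10 went from 7.32 and 8.72 CPM to 3.99 and 3.38 CPM (log2 fold change -1.08 ± 0.146, edgeR adjusted p = 0.00216). By region, 5 of 33 receptor tests were lower in the caudate putamen (15.2%) and none was higher, against 4.9% lower and 6.47% higher over all tests, and 21.1% called in either direction in astrocytes, which held 4 of the 5. Itga1 and Ddr2 in astrocytes were among the 5, with log2 fold changes of -2.32 ± 0.203 and -2.33 ± 0.187 (edgeR adjusted p = 1.94e-05 and 2.54e-06). The other lists went both ways by region, with 9 higher and 6 lower of 94 for synthesis, 2 and 3 of 41 for basement membrane partners and 2 and 1 of 28 for turnover.

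Of the 16 basement membrane partners, 2 rose (2.22%) and 3 fell (3.33%) of 90 with age in the caudate putamen, and 1 rose of 93 in the hippocampus (1.08%). Lama2, a laminin alpha chain, was each of the 3 that rose, in D1, D2 and dentate granule neurons, and it also rose in oligodendrocytes over both regions (log2 fold change 0.34 ± 0.081, edgeR adjusted p = 0.0331). In dentate granule neurons it went from 16.6 and 12.9 CPM to 29.9 and 25.9 CPM. Agrn was each of the 3 that fell. Of the 13 turnover genes, 3 rose of 58 in the caudate putamen (5.17%) and 2 fell of 63 in the hippocampus (3.17%). These are counts of few tests, and nothing particular to a list is read from them.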

How the data were processed

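Nuclei of 8 libraries were measured by droplet single-nucleus RNA-seq, and the deposited files hold UMI counts per gene and nucleus, made by the authors with Cell Ranger (6.1.2 in 7 of the libraries and 7.0.0 in the second young caudate putamen library, per the file headers). The submitters' processing notes name Cell Ranger 4.0.0 and mm10. Use of introns, use of strand and the annotation are not given in the sources used here, and Col9a3 (Tcfl5) and other members overlap genes on the opposite strand.

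Of 109826 barcodes, those under 500 genes or over 5% mitochondrial counts were left out, and 10775 doublets called by Scrublet (2.517% to 15.557% per library) were removed. Each region was clustered (scanpy 1.11.5, Leiden resolution 1.0, 3000 variable genes, 40 components) without collagens, into 35 and 31 clusters, and vascular nuclei were clustered again into 16. Limits for naming clusters were set after the data were seen. The members, gene lists and markers were chosen with earlier results of these data known. Counts were summed per class and library (at least 20 nuclei) and compared by quasi-likelihood fits of edgeR 4.0.16 on TMM-scaled libraries after a filter on low counts, with Benjamini-Hochberg adjustment over all genes of a class. The fit was also run on simulated counts with the same dispersion for every gene and no replicate effect. That setting is simpler than these libraries, so no result rests on it. Gene lengths are GENCODE gene spans. Named with values are members called in any comparison and the 3 leading members of each class with at least 10 CPM. Values of every library are printed where a result turns on them, and means ± SD elsewhere. Intervals and limits cover counting error only. DESeq2 1.42.0, other filters, resolutions and left-out libraries were alternatives.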

Additional observations from a re-analysis of the deposited data

How the results depend on the processing

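The counts of members past the test moved with the processing as follows. With no filter on low counts they were 16 of 455 with age in the hippocampus (3 as reported) and 10 of 407 in the caudate putamen (2). They were 7 of 208 for the mean of the age effects (4) and 29 of 208 between regions (17). As shares these were 3.52%, 2.46%, 3.37% and 13.9%, against 2.19%, 2.18%, 3.79% and 8.21% of all tests. DESeq2 called 2 of 44 for the mean (4.55%, all tests 2.53%) and 11 of 67 between regions (16.4%, all tests 8.59%). Removing a gene length trend left 2 of 67 for the mean (2.99%, all tests 2.62%). With doublets retained the counts were 6 of 154 in the hippocampus (3.9%, all tests 1.18%) and 1 of 186 in the caudate putamen (0.538%, all tests 1.03%). In that run 14 of 44 members peaked in vascular or fibroblast classes in place of 28, because the fibroblast clusters took no name there. With collagens among the clustering genes the caudate putamen count was 1 of 178 (0.562%, all tests 1.02%). Leaving out 1 library at a time gave 1 to 14 calls in the hippocampus (14 without the first young library), 2 to 3 in the caudate putamen, 1 to 4 for the mean, 10 to 17 between regions and 0 for the difference of age effects. The share over all tests moved in these fits as well. For the mean it exceeded the member share without the first young hippocampal library. A replicate block gave 9 calls of 166 in the hippocampus (5.42%) and 15 of 180 in the caudate putamen (8.33%). Under the block 1.93% of all tests passed in the hippocampus and 5.13% in the caudate putamen. Same-numbered libraries deviated with correlations of -0.138 to 0.371 over 15 classes. Between the ages they were over 0.1 in 5 of 10 caudate putamen classes (D1 neurons 0.371, D2 neurons 0.269) and in 1 of 11 hippocampal ones. The labels tie no number to a shared animal or day, and not every correlation was over 0.1, so the numbers were not taken to pair the libraries. With the gene length trend removed, Col11a1 in OPC (adjusted p = 0.103) and Col4a2 (0.0706) and Col4a5 (0.0608) in astrocytes were lost between regions, and Col9a1 (0.0885) and Col23a1 (0.0561) for the mean. Col9a1 in oligodendrocytes was also lost for the mean with the replicate block (edgeR adjusted p = 0.0523) and at clustering resolution 0.5 (0.0511). Over the 26 named calls, 88 of 469 alternative values lost the call and none reversed its direction. The limit of at least 10 nuclei was added after seeing the data. The cause of these shifts was not tested, apart from the fibroblast names.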

Other observations

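Clusters without a name also held collagen RNA. A caudate putamen cluster of 50 nuclei, all from the first young library and led by Slc17a6 and Lef1, held Col25a1 at 1090 CPM and Col27a1 at 182 CPM. In the hippocampus, 615 nuclei led by Lef1 and Prkcd held Col25a1 at 338 CPM and Col26a1 at 98.5 CPM, and 859 nuclei led by Chrm2 and Ebf1 held Col25a1 at 320 CPM, Col11a1 at 119 CPM and Col16a1 at 60.1 CPM. A cluster of 132 hippocampal nuclei led by Csf2rb2 held Col4a2 at 214, Col4a1 at 210 and Col19a1 at 193 CPM. These are pooled levels over all libraries.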
